A study of Mus musculus with 28 samples.

Results

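The genes described here encode 8 secreted or extracellular proteins that bind bone morphogenetic proteins (BMPs) or the related activins: Chrdl1, Chrd, Nog, Grem1, Fst, Fstl1, Nbl1 and Twsg1. They were chosen by symbol from the 54429 genes of the count table, and Chrdl1 was included for its fall in chondrocyte cultures at low oxygen, so that contrast is described below and not tested for any of the 8. RNA was sequenced from O9-1, an established mouse cell line of cranial neural crest origin (embryonic cells that build much of the skull and face), in a study of their differentiation under low oxygen. Polyadenylated RNA was read from 28 libraries in 8 groups, with 4 libraries in each group kept at 21% O2 and 3 libraries in each group kept at 0.5% O2. At each oxygen level 1 group was proliferating in medium conditioned by STO feeder cells, with 15% fetal calf serum, 25 ng/ml basic FGF and 5 ng/ml LIF. Osteoblast cultures spent 10 days in medium with 10% serum, beta-glycerophosphate, 0.1 µM dexamethasone and 100 ng/ml BMP-2. Chondrocyte cultures spent 3 days in that osteogenic medium and then 7 days as micromasses on matrigel with 5% serum, 0.1 µM dexamethasone, 10 ng/ml TGF-beta3 and 50 ng/ml BMP-2. Smooth muscle cultures spent 3 days in medium with 10% serum and no added BMP-2. The medium, the time in culture and the added BMP-2 therefore differ together between the cultures and cannot be told apart. All groups come from this single line, and nothing in the labels says that the replicates were separate cultures, so p-values measure only the spread between these libraries, which may be technical.

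BMPs are secreted ligands that bring together type I and type II receptor kinases, which phosphorylate SMAD1, SMAD5 and SMAD9 and so switch on targets such as the Id genes. Extracellular antagonists bind the ligands and keep them from their receptors: chordin, chordin-like 1 and noggin bind BMPs directly, and gremlin 1 and NBL1 (also called DAN) belong to the DAN family of cystine-knot proteins. Follistatin binds activins most tightly and BMPs less so, follistatin-like 1 is a related secreted glycoprotein, and twisted gastrulation (TWSG1) forms complexes with chordin and BMP that can hold BMP back or release it. In the cranial neural crest these proteins limit BMP signalling while cartilage and bone form, and several of them are themselves induced by BMP.

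Library totals, in units of 1000000 counts, ran from 19.87 to 64.69. Levels are given as CPM, counts per 1000000 after scaling by trimmed means (TMM), and changes on the log2 scale from edgeR. The SE after a change is an approximate standard error, the size of the change divided by the square root of its edgeR F statistic. It is not a standard error that edgeR reports. A gene was called where its Benjamini-Hochberg adjusted p, taken over all genes tested in the comparison, was under 0.05. The 3 smooth muscle libraries at 0.5% O2 stood apart: mitochondrial ribosomal RNA took 11.6% to 13.3% of their counts and at most 0.0889% in the other 25 libraries, and their scaling factors were 0.505 to 0.533 against 0.901 to 1.29. Osteoblast replicate 4 at 21% O2 also stood apart, lying far outside its group for 15.8% of 16540 genes against 0.768% to 0.822% for replicates 1 to 3. The summed level of 5 genes induced by low oxygen (Vegfa, Slc2a1, Car9, Bnip3 and Pdk1) lay between 139 and 896 CPM in the libraries at 21% O2 and between 1658 and 2387 CPM in those at 0.5% O2. Of the markers of the labelled cell types, the neural crest gene Sox10 had 1 count over all groups, and the cartilage gene Matn1 was at or near 0 in both chondrocyte groups, while Col2a1, Acan and Sox9 were expressed there. Smooth muscle markers (Acta2, Tagln, Cnn1 and Myh11) summed to between 3323 and 3757 CPM in smooth muscle cultures at 21% O2 and to between 28.5 and 42.3 CPM at 0.5% O2, which was within or below the range of 36.3 to 53.1 CPM in the proliferating libraries. The group at 0.5% O2 is therefore called smooth muscle only by its medium. The same 4 markers summed to between 3064 and 4682 CPM in osteoblast cultures at 21% O2. The summed 6 osteoblast markers (Sp7, Alpl, Ibsp, Bglap, Runx2 and Col1a1), which are mostly Col1a1, were highest in the chondrocyte cultures, with 36031 to 44785 CPM at 21% O2 and 43317 to 50397 CPM at 0.5% O2, against 5719 to 9423 CPM and 8769 to 11006 CPM in the osteoblast cultures. Mean Sp7, Alpl and Ibsp were also higher in chondrocyte than in osteoblast cultures at each oxygen level. Runx2 was highest in osteoblast cultures at 0.5% O2 (140.2 CPM, against 82.8 CPM in chondrocyte cultures). At 21% O2 mean Runx2 was 63.5 CPM in osteoblast, 63.9 in proliferating, 69.4 in smooth muscle and 88.6 CPM in chondrocyte cultures. Bglap was at most 0.615 CPM in any osteoblast or chondrocyte group. The osteoblast groups are therefore named by their labels and not by these markers. Of 7 markers of other cell types, the skeletal muscle genes Myod1 and Myog were at 0 in all groups and the summed level was at most 7.85 CPM. RNA from bulk cultures was measured, so fewer cells of a type and less RNA per cell cannot be told apart for any gene below.

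Promoter sequences could be matched for 5 of the 8 genes (Chrd, Grem1, Fstl1, Nbl1 and Twsg1) in the RefSeq promoter table of GRCm38.p6, which gives 250 bases before and 50 after each gene's start. They were searched on both strands for ACGTG, the core of the element bound by hypoxia-inducible factors, and for GGCGCC and CAGACA, which SMAD proteins can bind. No ACGTG was found in any of the 5, and 19.6% of 32851 promoters hold it. GGCGCC occurred in 3 of the 5 and in 11.9% of all promoters, and CAGACA in 1 of the 5 and in 21.0% of all promoters. The 3 promoters with GGCGCC are shown because their genes cover the main patterns below: Nbl1 and Chrd were called higher in each of the 6 comparisons with proliferating cells, and Grem1 changed in opposite directions in different cultures. Capitals mark the matches, and each sequence is given 5′ to 3′ on the gene's own strand.
Nbl1 (chr4:139092921-139093220, minus strand): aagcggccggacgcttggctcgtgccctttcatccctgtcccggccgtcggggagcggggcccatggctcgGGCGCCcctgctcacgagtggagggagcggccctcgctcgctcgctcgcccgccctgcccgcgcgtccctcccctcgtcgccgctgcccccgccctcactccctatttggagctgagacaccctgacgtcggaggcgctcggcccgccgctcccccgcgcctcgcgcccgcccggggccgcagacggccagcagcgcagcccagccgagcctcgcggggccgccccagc
Chrd (chr16:20732877-20733176, plus strand): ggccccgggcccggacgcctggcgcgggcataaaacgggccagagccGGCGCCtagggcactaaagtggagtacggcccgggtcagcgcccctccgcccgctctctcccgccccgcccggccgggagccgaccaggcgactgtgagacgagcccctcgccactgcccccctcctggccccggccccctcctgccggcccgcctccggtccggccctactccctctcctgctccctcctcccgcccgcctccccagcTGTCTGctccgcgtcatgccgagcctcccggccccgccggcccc
Grem1 (chr2:113758599-113758898, minus strand): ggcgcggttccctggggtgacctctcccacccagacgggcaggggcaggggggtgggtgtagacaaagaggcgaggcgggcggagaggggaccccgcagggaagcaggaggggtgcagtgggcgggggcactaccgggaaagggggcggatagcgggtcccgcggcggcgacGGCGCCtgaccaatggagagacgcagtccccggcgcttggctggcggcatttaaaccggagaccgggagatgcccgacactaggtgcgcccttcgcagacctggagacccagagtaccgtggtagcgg
The GGCGCC match begins 179 bases before the start of Nbl1, 203 bases before that of Chrd and 78 bases before that of Grem1. The Chrd promoter also holds CAGACA on the reverse strand (printed as TGTCTG), beginning at base 7 of the transcript. These promoters are rich in G and C (78.3%, 78.3% and 70.7%), as are those of Fstl1 (66.7%) and Twsg1 (68.0%), and the matches are a description of the letters only.

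Per kb of exon, which allows levels of different genes to be compared, Grem1 and Fstl1 made up most of the summed antagonist RNA in all 8 groups. In proliferating cells Grem1 led, with 57.3% of the sum at 21% O2 and 52.3% at 0.5% O2. In chondrocyte cultures Fstl1 took 71.2% and 76.1% and Grem1 5.25% and 5.00%. Osteoblast cultures differed between the oxygen levels: Fstl1 held 54.7% at 21% O2 and 21.6% at 0.5% O2, where Grem1 held 43.5% and Nbl1 28.8%. The summed level per kb was 244 ± 11.3 CPM (SD, n = 4) in proliferating cells at 21% O2, 657 ± 50.4 in chondrocyte, 989.9 ± 141 in osteoblast and 558 ± 47.4 in smooth muscle cultures. At 0.5% O2 the values in the same order were 332 ± 14.6, 618 ± 9.02, 1020.4 ± 80.0 and 125 ± 5.81 CPM per kb (SD, n = 3). Chrdl1, Chrd and Nog each held at most 3.64% in any group.

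**Figure D1:**
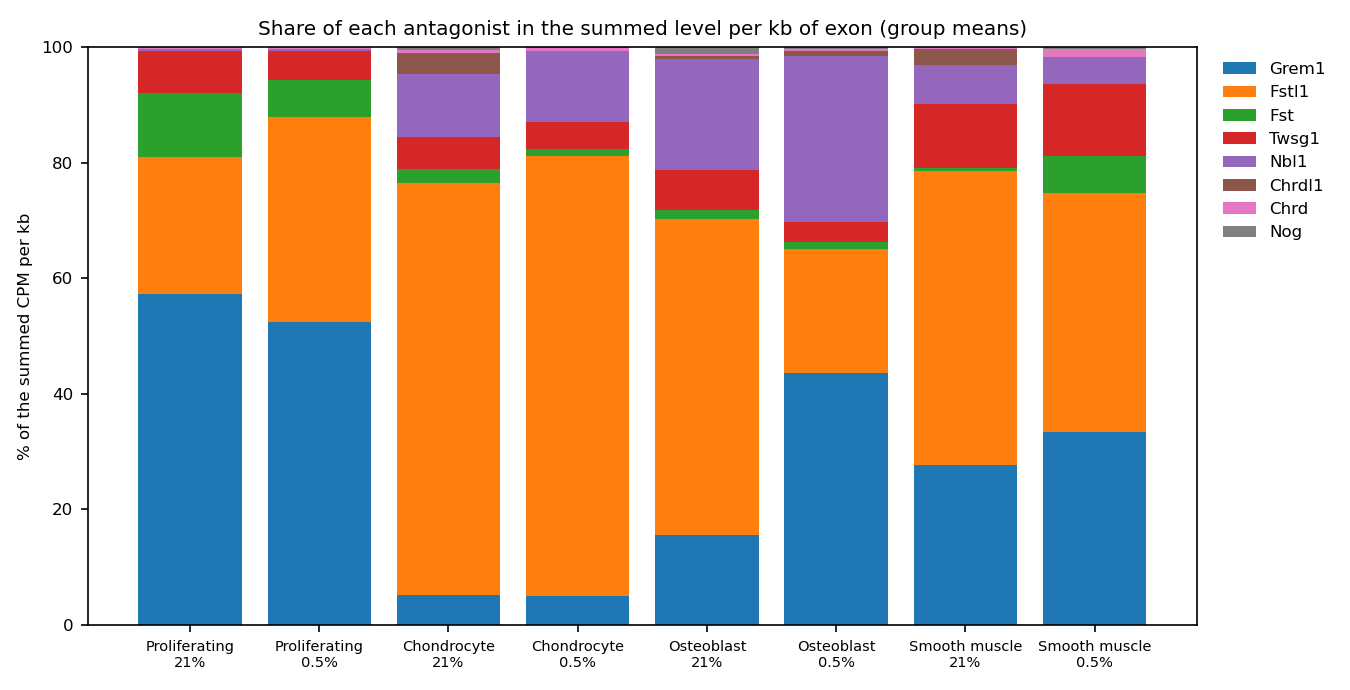
Share of each antagonist, in percent, in the summed CPM per kb of exon in each of the 8 groups (bars, from group means). Grem1 leads in proliferating cells, Fstl1 in chondrocyte cultures and in osteoblast cultures at 21% O2, and Grem1 again in osteoblast cultures at 0.5% O2.

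Against proliferating cells at the same oxygen level, more antagonists rose than fell in every culture but smooth muscle at 0.5% O2, in comparisons where most genes of any kind were called. At 21% O2, 5 of 7 tested members rose and 2 fell in chondrocyte cultures (75.7% of 14360 genes were called, 38.1% higher and 37.6% lower). In osteoblast cultures 6 of 8 rose and none fell (79.4% of 14434 called, 41.3% higher and 38.1% lower), and in smooth muscle cultures 5 of 7 rose and 1 fell (80.9% of 14582 called, 41.3% higher and 39.5% lower). At 0.5% O2, 5 of 7 rose and 2 fell in chondrocyte cultures (70.1% of 14347 called, 35.2% higher and 35.0% lower). In osteoblast cultures at 0.5% O2 7 of 8 rose and 1 fell (72.4% of 14338 called, 36.7% higher and 35.7% lower), and in smooth muscle cultures 2 of 7 rose and 3 fell (72.0% of 14080 called, 34.7% higher and 37.3% lower). With most genes called, these counts are not a result about the members. Libraries of the groups did not overlap for 70.3%, 74.7% and 74.9% of genes in chondrocyte, osteoblast and smooth muscle cultures at 21% O2 and for 73.8%, 74.8% and 75.3% at 0.5% O2, so separation of the groups is common among genes of any kind. The comparisons at each oxygen level share their proliferating libraries. With library size alone in place of TMM the share of higher genes among the calls moved from 50.3% to 34.8% and from 50.1% to 31.7% in the chondrocyte comparisons at 21% and 0.5% O2, from 50.7% to 38.1% in osteoblast cultures at 0.5% O2 and from 48.2% to 15.1% in smooth muscle cultures at 0.5% O2. The median over all genes was then -0.35, -0.35, -0.23 and -1.35, against -0.01, -0.02, 0.00 and -0.07 with TMM.

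Between oxygen levels, the members moved in different directions in different cultures. In proliferating cells at 0.5% against 21% O2, 4 of 7 tested members rose and 1 fell (66.1% of 14156 genes were called, 33.6% higher and 32.5% lower, and 65.0% did not overlap between groups). In osteoblast cultures 4 of 8 rose and 2 fell (55.1% of 14533 called, 27.3% higher and 27.8% lower, and 58.1% without overlap; of the calls 49.6% were higher and 37.0% with library size alone, where the median over all genes moved from -0.03 to -0.19). For smooth muscle cultures 1 of 7 rose and 5 fell (76.1% of 14914 called, 35.8% higher and 40.3% lower, and 75.0% without overlap; of the calls 47.0% were higher and 15.8% with library size alone, where the median moved from -0.12 to -1.49). With library size alone the smooth muscle differences of Chrdl1, Grem1, Fstl1, Nbl1 and Twsg1 between oxygen levels were -8.33, -3.20, -3.77, -4.04 and -3.28, each still called. The difference between the osteoblast changes at the 2 oxygen levels, an interaction term, was called for 4 of 8 members, 2 in each direction (54.0% of 15486 genes, 28.8% higher and 25.1% lower), and that between the smooth muscle changes for 8 of 8, 2 higher and 6 lower (70.0% of 15640 genes, 35.0% higher and 35.0% lower; of the calls 50.0% were higher and 16.7% with library size alone). Of these 8, Chrdl1 had 8 and 27 counts in the proliferating and smooth muscle groups at 0.5% O2, and Nog 8 and 25 in the smooth muscle groups. Their terms rest on comparisons below the count filter and add no weight to the count. The corresponding interaction term for chondrocyte cultures holds the contrast behind the choice of Chrdl1 and was not tested.

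**Figure D2:**
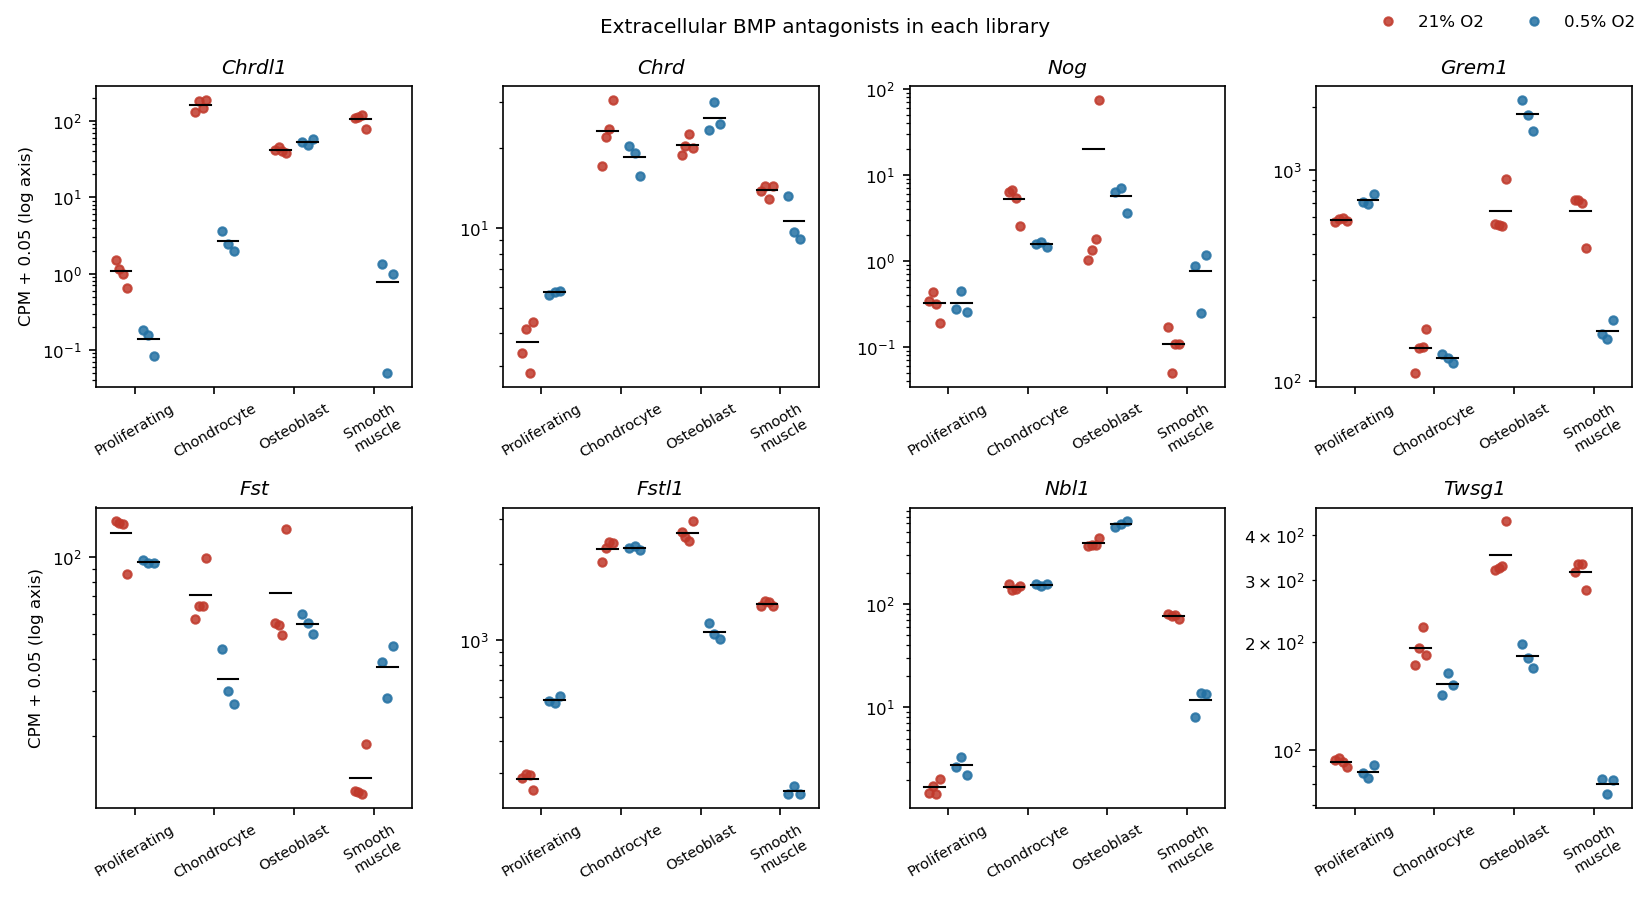
CPM + 0.05 of the 8 antagonists in each of the 28 libraries (points; bars are group means; logarithmic axis, scaled separately for each gene). Mean Chrdl1 is 162 CPM at 21% and 2.64 CPM at 0.5% O2 in chondrocyte cultures, 104 and 0.734 CPM in smooth muscle cultures, and 41.4 and 53.0 CPM in osteoblast cultures, and 1 osteoblast library at 21% O2 stands alone for Nog.

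Chrdl1 (ENSMUSG00000031283, chrX:143285674-143394262, mm10, minus strand) encodes chordin-like 1, a BMP antagonist with cysteine-rich domains like those of chordin. At 21% O2 the 4 proliferating libraries held 1.48, 1.09, 0.928 and 0.595 CPM. The chondrocyte libraries held 129.5, 181, 147 and 189 CPM, the osteoblast libraries 41.7, 45.4, 40.6 and 37.8 CPM, and the smooth muscle libraries 109, 112, 119 and 77.5 CPM. All differentiated libraries at 21% O2 were thus at least an order of magnitude above the proliferating ones, with no overlap between any of these 4 groups. At 0.5% O2 the proliferating libraries held 0.130, 0.108 and 0.0342 CPM (8 counts in all) and the chondrocyte libraries 3.61, 2.40 and 1.91 CPM. The osteoblast libraries held 52.4, 48.8 and 57.6 CPM, and the smooth muscle libraries 1.27, 0 and 0.926 CPM (27 counts in all). Only the osteoblast cultures at 0.5% O2 therefore reached the range seen in differentiated cultures at 21% O2. The order of the group means was chondrocyte and then smooth muscle at 21% O2, osteoblast at 0.5% O2, osteoblast at 21% O2, chondrocyte at 0.5% O2, proliferating at 21% O2, and last the smooth muscle and proliferating groups at 0.5% O2, with overlap between neighbours only among the last 3.

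Chrdl1 rose in osteoblast cultures by 5.34 (SE 0.17, edgeR adjusted p = 2.3e-09) at 21% O2 and by 9.11 (SE 0.22, edgeR adjusted p = 5.32e-16) at 0.5% O2, the latter against the 8 counts in proliferating cells. The osteoblast change was larger at 0.5% O2 by 3.82 (SE 0.46, edgeR adjusted p = 2e-06). In smooth muscle cultures at 21% O2 it rose by 6.67 (SE 0.21, edgeR adjusted p = 5.7e-11), and at 0.5% O2 it was below the count filter. Between oxygen levels it fell by 3.43 (SE 0.55, edgeR adjusted p = 4.44e-05) in proliferating cells and by 6.98 (SE 0.31, edgeR adjusted p = 8.61e-12) in smooth muscle cultures, and it rose by 0.36 (SE 0.09, edgeR adjusted p = 0.01) in osteoblast cultures. The last call was lost with library size alone (0.20, edgeR adjusted p = 0.0826) and with all 8 groups in 1 fit (0.36, edgeR adjusted p = 0.0502). The smooth muscle interaction of -3.51 (SE 1.55, edgeR adjusted p = 0.0476) was lost in 10 of the 14 fits that left out 1 library, with edgeR adjusted p from 0.0514 to 0.209 in those 10. At 0.5% O2 this interaction rests on 8 counts in proliferating and 27 in smooth muscle cultures, a comparison below the count filter. It is therefore a description only.

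In chondrocyte cultures the Chrdl1 values that led to its choice were a mean of 162 ± 28.1 CPM (SD, n = 4) at 21% O2 and 2.64 ± 0.876 CPM (SD, n = 3) at 0.5% O2, a difference of -5.93. This was the lowest value among called genes with a mean of at least 10 counts in both groups and no overlap between the libraries, leaving out mitochondrial and predicted genes, with Col9a2, a cartilage collagen chain, next at -5.79. Without those conditions it ranked 14. Of all genes, 22.6% were called in this comparison. Against proliferating cells Chrdl1 was higher in chondrocyte cultures by 7.33 at 21% O2 and by 4.79 at 0.5% O2, also given without a test. The sum of the 6 chondrocyte markers was lower too: it lay between 2817 and 8485 CPM in the libraries at 21% O2 and between 845 and 1260 CPM at 0.5% O2, with Matn1 at 0 in the latter. Col2a1 (means of 3512 and 274 CPM), Acan (1964 and 622 CPM), Comp (51.8 and 3.67 CPM) and Col9a1 (35.6 and 0.143 CPM) were lower at 0.5% O2, while Sox9 was at 159 and 160.5 CPM. The part of these markers in the Chrdl1 difference was not tested. In the smooth muscle cultures the same markers summed to between 108 and 136 CPM at 21% O2 and to between 29.1 and 36.1 CPM at 0.5% O2, so their sum was lower there too, and its part in that difference was not tested. The genes whose log2(CPM + 1) followed Chrdl1 most closely over the 28 libraries were Srpx (Pearson r = 0.952), Islr (r = 0.949) and Acot11 (r = 0.937), and of these Islr alone stayed among the first 3 with a pseudocount of 0.1. The libraries share their groups, so these correlations describe the groups and not independent samples.

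Chrd (ENSMUSG00000006958, chr16:20733127-20742384, plus strand) encodes chordin, which binds BMPs through its cysteine-rich domains and is inactivated by cleavage. At 21% O2 it was at 3.65 ± 0.727 CPM (SD, n = 4) in proliferating cells, 23.3 ± 5.57 in chondrocyte, 20.5 ± 1.56 in osteoblast and 13.9 ± 0.724 in smooth muscle cultures. At 0.5% O2 the values in the same order were 5.66 ± 0.0967, 18.4 ± 2.43, 26.0 ± 3.38 and 10.6 ± 2.21 CPM (SD, n = 3). Both proliferating groups were below every differentiated library. Chrd rose in all 6 comparisons with proliferating cells, by 2.72, 2.53 and 1.96 at 21% O2 and by 1.69, 2.20 and 1.05 at 0.5% O2 in chondrocyte, osteoblast and smooth muscle cultures (edgeR adjusted p from 1.86e-10 to 0.00023). The last of these turned to -0.23 (edgeR adjusted p = 0.286) with library size alone. The smooth muscle change was smaller at 0.5% O2 by 0.93 (interaction -0.93, SE 0.22, edgeR adjusted p = 0.000592; -2.26 with library size alone).

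Between oxygen levels Chrd rose in proliferating cells by 0.67 (SE 0.16, edgeR adjusted p = 0.00191) and in osteoblast cultures by 0.34 (SE 0.11, edgeR adjusted p = 0.0286). The osteoblast call was lost in 4 alternatives: with library size alone, without osteoblast replicate 1 or 2 at 21% O2 and without osteoblast replicate 2 at 0.5% O2, with changes of 0.18, 0.30, 0.34 and 0.24. The smooth muscle change of -0.31 (SE 0.16, edgeR adjusted p = 0.0925) was not called. It was called as a fall in 3 alternatives, at -1.67 with library size alone (edgeR adjusted p = 6.01e-09), at -0.43 without the filter (edgeR adjusted p = 0.0245) and at -0.52 without smooth muscle replicate 1 at 0.5% O2 (edgeR adjusted p = 0.0122). In chondrocyte cultures the groups overlapped (17.1, 22.0, 23.5 and 30.5 CPM against 20.4, 19.2 and 15.7 CPM). Chrd shares exon sequence with Thpo on the opposite strand, and how strand was used in counting is not given in the sources used here. Thpo had between 0.230 and 1.58 CPM in all libraries.

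Nog (ENSMUSG00000048616, chr11:89300638-89302332, minus strand) encodes noggin, which covers the receptor-binding faces of BMP dimers and is itself a BMP target in bone. It was scarce in proliferating cells, at 0.296, 0.392, 0.265 and 0.140 CPM at 21% O2 and 0.228, 0.395 and 0.205 CPM at 0.5% O2. In chondrocyte cultures it was at 6.33, 6.63, 5.33 and 2.51 CPM at 21% O2 and at 1.51, 1.61 and 1.41 CPM at 0.5% O2. In both cases the chondrocyte libraries lay above the proliferating ones, and Nog rose by 4.16 (SE 0.38, edgeR adjusted p = 7.48e-07) and by 2.44 (SE 0.38, edgeR adjusted p = 7.02e-05). The call at 0.5% O2 was lost with all 8 groups in 1 fit (edgeR adjusted p = 0.375). The 2 chondrocyte groups did not overlap, with a difference of -1.79 that is given without a test.

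In osteoblast cultures at 21% O2, Nog was at 0.978, 1.30 and 1.76 CPM in replicates 1 to 3 and at 75.1 CPM in replicate 4. The 3 libraries at 0.5% O2 held 6.31, 7.08 and 3.59 CPM, above replicates 1 to 3 and below replicate 4. With all libraries the difference between oxygen levels was -1.83 (SE 1.68, edgeR adjusted p = 0.396) and was not called. Without replicate 4 it was 2.06 in the other direction (SE 0.30, edgeR adjusted p = 4.54e-05). Against proliferating cells the rise at 21% O2 of 6.10 (SE 1.85, edgeR adjusted p = 0.0131) became 2.15 (edgeR adjusted p = 5.96e-05) without replicate 4 and was lost with limma-voom (adjusted p = 0.125) and without the filter (edgeR adjusted p = 0.0617). At 0.5% O2 Nog rose by 4.35 (SE 0.40, edgeR adjusted p = 6.82e-08). The interaction of -1.72 was not called (SE 4.96, edgeR adjusted p = 0.804) and was 2.20 (edgeR adjusted p = 0.00863) without replicate 4. Nog had 8 counts in all smooth muscle libraries at 21% O2 and 25 at 0.5% O2, and of the comparisons there the change at 0.5% O2 (1.52, edgeR adjusted p = 0.067) and the interaction (3.77, SE 0.94, edgeR adjusted p = 0.000774) passed the count filter. The change at 0.5% O2 was 0.26 with library size alone (edgeR adjusted p = 0.729), and it was called, at 1.89, without smooth muscle replicate 2 (edgeR adjusted p = 0.0247). The interaction was 2.46 with library size alone and was lost with all 8 groups in 1 fit (edgeR adjusted p = 0.539).

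**Figure D3:**
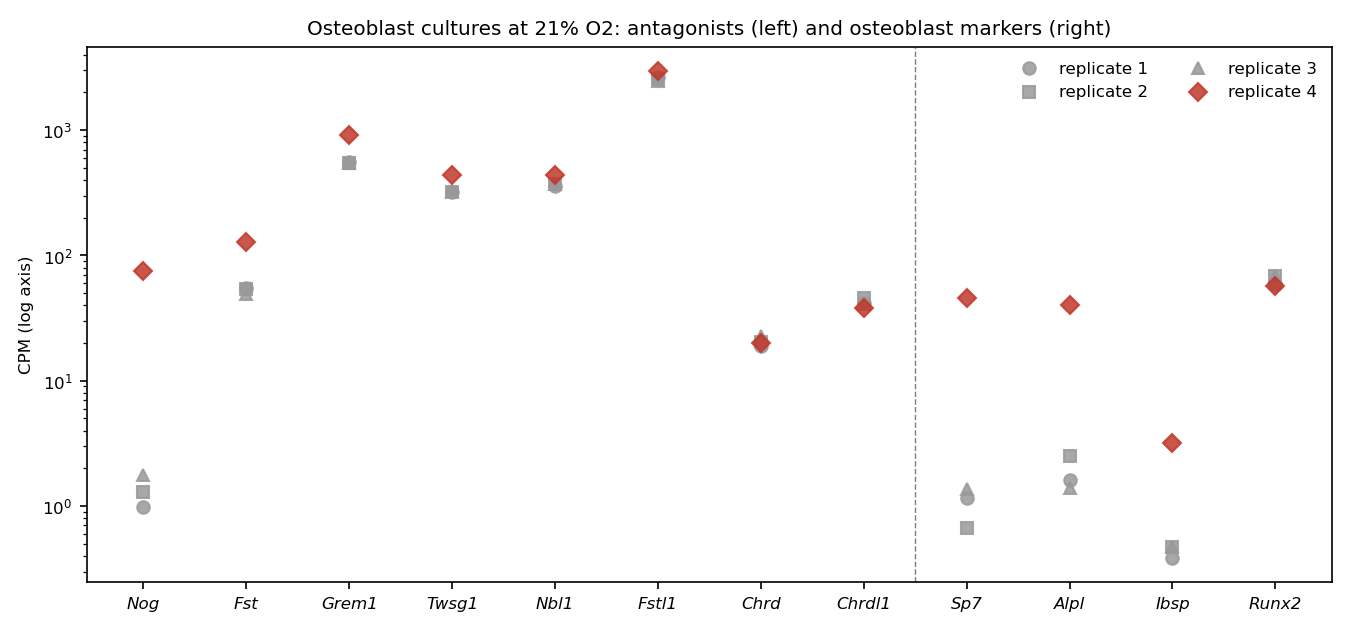
CPM (logarithmic axis) of the 8 antagonists and of 4 osteoblast markers in the 4 osteoblast libraries at 21% O2. Replicate 4 (red diamonds) lies above replicates 1 to 3 (grey) for Nog, Fst, Grem1, Twsg1, Nbl1 and Fstl1 and for Sp7, Alpl and Ibsp, and among them for Chrd; for Chrdl1 and Runx2 it is the lowest.

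Osteoblast replicate 4 at 21% O2 was not high for Nog alone. Fst was at 129 CPM there against 49.4 to 55.3 CPM in replicates 1 to 3, Grem1 at 912 against 544 to 557 CPM, and Twsg1 at 437 against 319 to 327 CPM. The osteoblast transcription factor Sp7 was at 45.4 CPM against 0.670 to 1.36 CPM, Alpl at 40.0 against 1.39 to 2.52 CPM and Ibsp at 3.20 against 0.384 to 0.475 CPM, while Runx2, at 57.1 against 59.6 to 69.1 CPM, was not higher. The 6 osteoblast markers together reached 9423 CPM in replicate 4, whereas replicates 1 to 3 held 5719 to 5742 CPM. Markers of the other cultures were high in it as well: the cartilage genes Col2a1 (775 against 35.6 to 43.6 CPM) and Acan (370.2 against 89.7 to 98.2 CPM), the 6 chondrocyte markers together (1447 against 180.3 to 196 CPM) and the 4 smooth muscle markers (4682 against 3064 to 3216 CPM). The BMP-induced genes Id3 (380 against 186 to 206 CPM) and Smad6 (133 against 49.1 to 55.6 CPM) were high in it too. In the osteoblast libraries at 0.5% O2 Sp7 was between 96.2 and 96.9 CPM, and Nog was lower than in replicate 4. The part of these differences in the Nog values was not tested.

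Grem1 (ENSMUSG00000074934, chr2:113746164-113758646, minus strand) encodes gremlin 1, which binds BMP-2, BMP-4 and BMP-7. At 21% O2 the proliferating libraries held 566, 589, 593 and 573 CPM and the chondrocyte libraries 109, 142, 145 and 176 CPM. At 0.5% O2 the corresponding libraries held 706, 689 and 768 CPM and 135, 129 and 121 CPM. Chondrocyte cultures were thus below proliferating cells at both oxygen levels without overlap, and Grem1 fell by 1.95 (SE 0.12, edgeR adjusted p = 2.72e-08) and by 2.50 (SE 0.07, edgeR adjusted p = 1.97e-12). The chondrocyte groups overlapped each other. In osteoblast cultures the libraries at 21% O2 held 557, 546, 544 and 912 CPM and those at 0.5% O2 2162, 1836 and 1528 CPM. Grem1 rose by 1.52 between them (2.87-fold, SE 0.21, edgeR adjusted p = 0.000299), every library at 0.5% O2 lying above every library at 21% O2.

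In osteoblast against proliferating cells Grem1 rose by 1.35 at 0.5% O2 (SE 0.10, edgeR adjusted p = 2.07e-08), and at 21% O2 its difference of 0.20 (SE 0.16, edgeR adjusted p = 0.289) was not called. It was -0.07 without osteoblast replicate 4 (edgeR adjusted p = 0.0998) and also without replicate 4 of both groups, where it was called (edgeR adjusted p = 0.0319). The interaction was 1.20 (SE 0.23, edgeR adjusted p = 0.000569). Smooth muscle cultures showed the opposite: 721, 720, 697 and 428 CPM at 21% O2 against 166, 158 and 195 CPM at 0.5% O2, with no overlap. Grem1 fell there by 1.83 between oxygen levels (SE 0.19, edgeR adjusted p = 2.28e-05) and by 1.94 against proliferating cells at 0.5% O2 (SE 0.09, edgeR adjusted p = 9.7e-11), and both were lower still with library size alone (-3.20 and -3.21). At 21% O2 the smooth muscle difference of 0.20 (SE 0.15, edgeR adjusted p = 0.259) was called without smooth muscle replicate 4, at 0.35 (edgeR adjusted p = 3.68e-06). The interaction was -2.15 (SE 0.21, edgeR adjusted p = 2.56e-07; -3.49 with library size alone). In proliferating cells Grem1 rose by 0.37 (SE 0.05, edgeR adjusted p = 8.43e-06), a call lost with all 8 groups in 1 fit (0.31, edgeR adjusted p = 0.154).

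Nbl1 (ENSMUSG00000041120, chr4:139082284-139092993, minus strand) encodes the founding member of the DAN family, a weaker BMP antagonist than gremlin 1. It was nearly silent in proliferating cells, at 1.45, 1.70, 1.39 and 2.00 CPM at 21% O2 and 2.63, 3.30 and 2.16 CPM at 0.5% O2. Osteoblast libraries held 361, 373, 372 and 437 CPM at 21% O2 and 560, 599 and 631 CPM at 0.5% O2, the highest levels of this gene. These groups did not overlap, and Nbl1 rose by 7.93 (245-fold, SE 0.13, edgeR adjusted p = 4.63e-11) and by 7.79 (221-fold, SE 0.12, edgeR adjusted p = 1.76e-17) over proliferating cells. The difference between the osteoblast changes was -0.11 (SE 0.19, edgeR adjusted p = 0.681). In chondrocyte cultures it rose by 6.54 (SE 0.10, edgeR adjusted p = 6.72e-14) and by 5.83 (SE 0.11, edgeR adjusted p = 8.83e-14), to 145 ± 8.93 CPM (SD, n = 4) and 154 ± 4.85 CPM (SD, n = 3), levels that overlapped.

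Smooth muscle libraries held 79.2, 76.3, 79.0 and 72.2 CPM of Nbl1 at 21% O2 and 8.02, 13.9 and 13.4 CPM at 0.5% O2. The groups lay far apart, and the change between oxygen levels was a fall by 2.67 (SE 0.14, edgeR adjusted p = 1.1e-12). Nbl1 rose against proliferating cells at both levels, by 5.60 (SE 0.10, edgeR adjusted p = 2.57e-17) and by 2.22 (SE 0.25, edgeR adjusted p = 2.14e-06; 0.94 with library size alone), with an interaction of -3.40 (SE 0.27, edgeR adjusted p = 4.72e-11). Between oxygen levels it also rose in proliferating cells by 0.77 (SE 0.22, edgeR adjusted p = 0.00572) and in osteoblast cultures by 0.63 (SE 0.10, edgeR adjusted p = 0.000568).

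Fst (ENSMUSG00000021765, chr13:114452290-114458951, minus strand) encodes follistatin. Unlike the other 7 genes it was highest in proliferating cells, with 138, 136, 134 and 85.4 CPM at 21% O2 and 96.8, 94.7 and 94.9 CPM at 0.5% O2. The difference of -0.32 between these (SE 0.16, edgeR adjusted p = 0.122) was not called, and without proliferating replicate 4, the low library, it was -0.46 (edgeR adjusted p = 2.93e-10). Chondrocyte libraries held 57.1, 64.3, 64.1 and 98.6 CPM at 21% O2 and 43.7, 29.8 and 26.4 CPM at 0.5% O2, groups that did not overlap (difference -1.10, not tested). Fst fell in chondrocyte cultures by 0.72 (SE 0.20, edgeR adjusted p = 0.00947) at 21% O2 and by 1.52 (SE 0.17, edgeR adjusted p = 0.000105) at 0.5% O2. In osteoblast cultures it fell by 0.81 at 0.5% O2 (SE 0.08, edgeR adjusted p = 1.48e-07), and at 21% O2 the difference of -0.72 (SE 0.31, edgeR adjusted p = 0.055) was not called. It was called as a fall in 7 of 18 alternatives, among them, with every library kept, DESeq2 (adjusted p = 0.02), limma-voom (adjusted p = 0.0274), library size alone (edgeR adjusted p = 0.0296) and all 8 groups in 1 fit (edgeR adjusted p = 0.0101), and at -1.21 (edgeR adjusted p = 0.000388) without osteoblast replicate 4. The osteoblast libraries overlapped between oxygen levels (difference -0.40, SE 0.35, edgeR adjusted p = 0.364). The osteoblast interaction of -0.04 (SE 0.43, edgeR adjusted p = 0.951) was not called, but was 0.54 without replicate 4 of both groups at 21% O2 (edgeR adjusted p = 1.5e-05).

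Fst reached its lowest levels in smooth muscle cultures at 21% O2, 12.1, 12.1, 11.7 and 18.5 CPM, after a fall by 3.13 (8.77-fold, SE 0.21, edgeR adjusted p = 1.09e-06). At 0.5% O2 the libraries held 38.8, 27.9 and 44.8 CPM, all above those at 21% O2. Fst fell there by 1.23 (SE 0.13, edgeR adjusted p = 6.51e-07; -2.51 with library size alone), rose between oxygen levels by 1.52 (SE 0.17, edgeR adjusted p = 4.46e-07) and had an interaction of 1.88 (SE 0.29, edgeR adjusted p = 6.6e-05). Both of the latter calls were lost with library size alone, at 0.15 (edgeR adjusted p = 0.415) and 0.54 (edgeR adjusted p = 0.0964). Fst shares exon sequence with the antisense gene Gm47040 (at most 1.59 CPM), which was also among the 3 genes most like it over the 28 libraries (r = 0.843).

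Fstl1 (ENSMUSG00000022816, chr16:37776873-37836514, plus strand) encodes follistatin-like 1, a glycoprotein made by mesenchymal cells that can bind BMP-4. It was the most abundant of the 8 per kb in all differentiated groups but osteoblast cultures at 0.5% O2. Proliferating libraries held 285, 298, 295 and 256 CPM at 21% O2 and 574, 565 and 604 CPM at 0.5% O2, and Fstl1 rose between them by 1.09 (SE 0.05, edgeR adjusted p = 4.19e-10). Osteoblast libraries held 2664, 2548, 2472 and 2950.0 CPM at 21% O2 and 1174, 1063 and 1008 CPM at 0.5% O2, so that the order of the oxygen levels was turned round. The fall in osteoblast cultures was by 1.30 (SE 0.11, edgeR adjusted p = 1.18e-05). The rise over proliferating cells was 3.28 (SE 0.08, edgeR adjusted p = 7.31e-10) at 21% O2 and 0.89 (SE 0.07, edgeR adjusted p = 8.7e-09) at 0.5% O2, with an interaction of -2.35 (SE 0.12, edgeR adjusted p = 3.33e-10).

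Fstl1 in smooth muscle cultures was at 1369, 1435, 1420 and 1361 CPM at 21% O2 and at 248, 267 and 246 CPM at 0.5% O2. It rose by 2.35 (SE 0.06, edgeR adjusted p = 1.8e-15) in the former and fell by 1.07 (SE 0.07, edgeR adjusted p = 8.48e-09) in the latter (-2.35 with library size alone), relative to proliferating cells. The interaction of -3.45 (SE 0.09, edgeR adjusted p = 2.19e-20) was called, and the fall between oxygen levels was by 2.40 (SE 0.08, edgeR adjusted p = 4.33e-16). Chondrocyte cultures gave another picture, with 2300.1 ± 192 CPM (SD, n = 4) at 21% O2 and 2314 ± 39.9 CPM (SD, n = 3) at 0.5% O2, groups that overlapped. Fstl1 rose there over proliferating cells by 3.09 (SE 0.08, edgeR adjusted p = 3.97e-12) and by 1.99 (SE 0.06, edgeR adjusted p = 5.69e-12). Its closest genes over the 28 libraries were Fkbp14 (r = 0.985), Creb3l2 (r = 0.984) and Wfs1 (r = 0.981), which remained the first 3 with RLE factors, with library size alone and with a pseudocount of 0.1.

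Twsg1 (ENSMUSG00000024098, chr17:65921972-65951226, minus strand) encodes twisted gastrulation. Its group means lay between 80.0 and 352 CPM. Proliferating libraries held 93.4, 94.5, 92.2 and 89.3 CPM at 21% O2 and 85.9, 83.4 and 90.4 CPM at 0.5% O2, which overlapped (difference -0.04, SE 0.05, edgeR adjusted p = 0.522). Osteoblast libraries held 319, 324, 327 and 437 CPM at 21% O2 and 198, 180 and 170 CPM at 0.5% O2, without overlap. Twsg1 rose over proliferating cells by 1.98 (SE 0.11, edgeR adjusted p = 8.29e-08) and by 1.07 (SE 0.07, edgeR adjusted p = 1.79e-09), and fell between oxygen levels by 0.95 (SE 0.13, edgeR adjusted p = 0.000288). The interaction was -0.87 (SE 0.14, edgeR adjusted p = 7.64e-05). Smooth muscle libraries held 314, 332, 331 and 280 CPM at 21% O2 and 82.9, 74.9 and 82.0 CPM at 0.5% O2, the latter just below the proliferating libraries. The fitted change there, scaled on the libraries of that comparison alone, was 0.01 (SE 0.09, edgeR adjusted p = 0.942) and -1.27 with library size alone. The fall between oxygen levels was by 1.91 (SE 0.09, edgeR adjusted p = 1.32e-13), and the interaction was -1.83 (SE 0.10, edgeR adjusted p = 2.43e-14; -3.17 with library size alone). In chondrocyte cultures Twsg1 rose by 1.13 (SE 0.07, edgeR adjusted p = 9.99e-09) and by 0.81 (SE 0.07, edgeR adjusted p = 1.58e-07; 0.48 with library size alone).

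**Figure D4:**
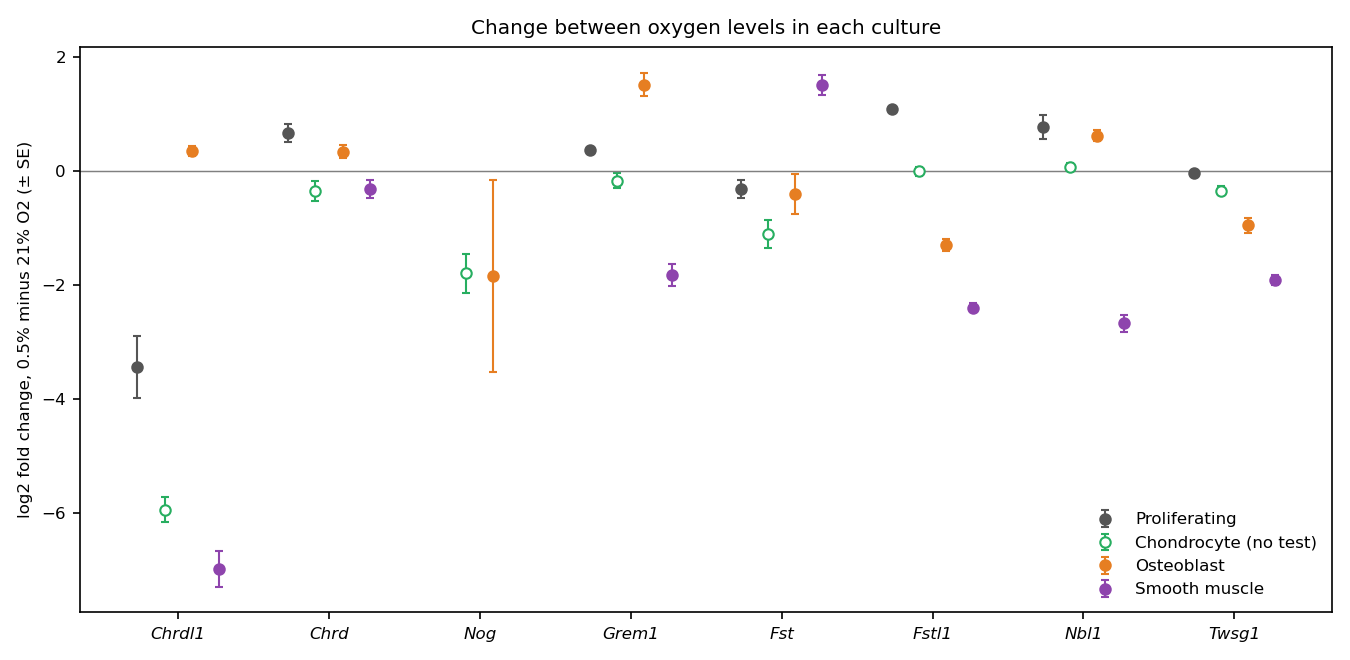
Log2 fold change of each antagonist between 0.5% and 21% O2 (points, ± SE) in proliferating, chondrocyte, osteoblast and smooth muscle cultures; open circles are the chondrocyte values, which were not tested. Grem1 lies at 1.52 in osteoblast and -1.83 in smooth muscle cultures, and Fstl1 at 1.09 in proliferating, -1.30 in osteoblast and -2.40 in smooth muscle cultures.

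**Figure D5:**
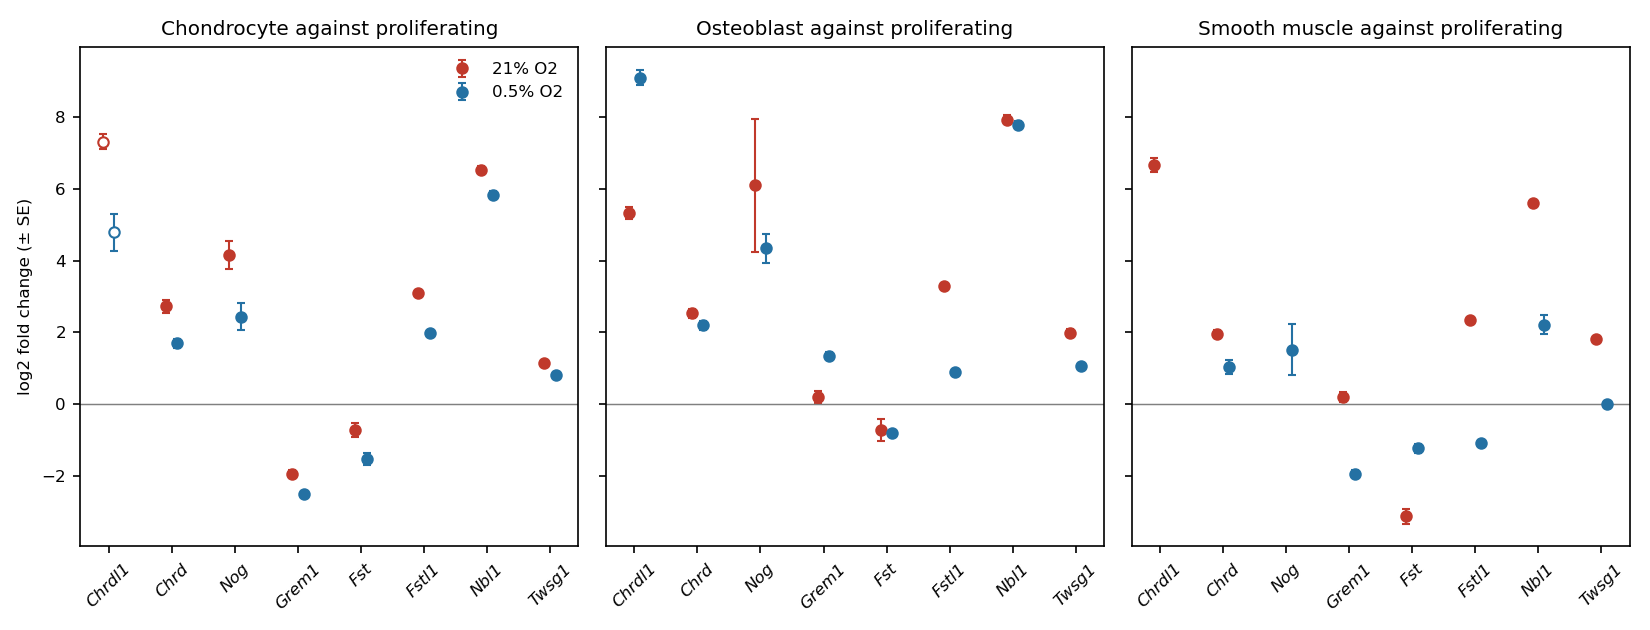
Log2 fold change of each antagonist (points, ± SE) against proliferating cells at the same oxygen level, for chondrocyte, osteoblast and smooth muscle cultures at 21% O2 (red) and 0.5% O2 (blue); open circles were not tested, and genes below the count filter are left out. Nbl1 and Chrd are above 0 in all panels, and Fstl1 changes sign between oxygen levels in smooth muscle cultures.

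In the chondrocyte comparison between oxygen levels, 22.6% of 14205 genes were called (10.6% higher and 12.0% lower; 47.0% of the calls were higher, and 32.0% with library size alone) and 31.8% did not overlap between the groups, and the members' values are given for description. Chrdl1, Nog and Fst were lower at 0.5% O2 by -5.93, -1.79 and -1.10 and did not overlap between the groups, nor did Twsg1, at -0.34. Chrd (-0.34), Grem1 (-0.16), Fstl1 (0.00) and Nbl1 (0.08) overlapped. Among other genes of the pathway, Inhba, which encodes the activin A subunit that follistatin binds, had a mean of 1142 CPM at 0.5% O2 and 621 CPM at 21% O2. The antagonist Bmper had means of 9.69 and 21.2 CPM, with libraries that overlapped between the groups. Fstl3, a follistatin relative, was at 161 and 90.1 CPM. The homeobox gene Msx1, a BMP target, was at 5.67 and 39.5 CPM, whereas the target Atoh8 was at 149.7 and 82.5 CPM and Smad9 at 45.5 and 20.6 CPM.

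The rest of the pathway was described from 6 lists, whose counts stand against the shares of all genes called: 75.7%, 79.4% and 80.9% in chondrocyte, osteoblast and smooth muscle cultures against proliferating cells at 21% O2 and 70.1%, 72.4% and 72.0% at 0.5% O2. Of 14 other secreted antagonists and modulators, 7 were tested in chondrocyte cultures at each oxygen level, where 6 rose and none fell (medians 2.96 and 1.21, against -0.01 and -0.02 over all genes). In osteoblast cultures 4 of 5 rose at 21% O2 and 4 of 6 at 0.5% O2, with none falling, and in smooth muscle cultures 4 of 6 rose and 2 fell at 21% O2 while 1 of 5 rose and 2 fell at 0.5% O2 (0 and 4 with library size alone). Smoc2, a matricellular BMP modulator, went from 0.233 CPM in proliferating cells at 21% O2 to 194, 91.8 and 46.6 CPM in chondrocyte, osteoblast and smooth muscle cultures. At 0.5% O2 it was at 1.79 CPM in smooth muscle cultures, a fall by 4.62 between oxygen levels (SE 0.18, edgeR adjusted p = 7.03e-15). Fstl3 rose between oxygen levels in proliferating cells by 2.56 (SE 0.11, edgeR adjusted p = 5.87e-10) and in smooth muscle cultures by 3.73 (SE 0.12, edgeR adjusted p = 2.86e-16), whereas Bmper fell in proliferating cells by 0.85 (SE 0.11, edgeR adjusted p = 6.65e-06). In osteoblast cultures Kcp rose by 1.99 (SE 0.52, edgeR adjusted p = 0.0102) and Dand5 fell by 0.66 (SE 0.16, edgeR adjusted p = 0.00733). Smoc1 had no counts in proliferating cells at 0.5% O2 and 2.23 CPM in chondrocyte cultures.

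Chordin is cut by the tolloid proteases. Of the 3 listed, 2 were tested and both rose in chondrocyte and osteoblast cultures at both oxygen levels and in smooth muscle cultures at 21% O2, where 70.1% to 80.9% of all genes were called. Tll1, encoding tolloid-like 1, went from 0.188 CPM in proliferating cells at 21% O2 to 253, 32.4 and 9.19 CPM in chondrocyte, osteoblast and smooth muscle cultures, and from 0.139 to 206 and 60.1 CPM in chondrocyte and osteoblast cultures at 0.5% O2. Between oxygen levels it rose in osteoblast cultures by 0.89 (SE 0.08, edgeR adjusted p = 1.54e-05) and fell in smooth muscle cultures by 4.31 (SE 0.37, edgeR adjusted p = 1.27e-09). Bmp1, encoding the other protease, fell in osteoblast cultures by 0.80 (SE 0.08, edgeR adjusted p = 4.22e-05) and in proliferating cells by 0.35 (SE 0.06, edgeR adjusted p = 0.000161). It rose between oxygen levels in smooth muscle cultures by 0.33 (SE 0.08, edgeR adjusted p = 0.000785), at 239 against 198 CPM, but with library size alone it fell by 1.04 (edgeR adjusted p = 6.93e-10).

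Among 14 ligands, 6 of 8 tested rose and 1 fell in chondrocyte cultures at 21% O2, and 4 of 8 rose and 3 fell in both osteoblast and smooth muscle cultures, where 75.7%, 79.4% and 80.9% of all genes were called. At 0.5% O2, 5 of 9 rose and 2 fell in chondrocyte, 4 of 9 rose and 5 fell in osteoblast, and none of 7 rose and 3 fell in smooth muscle cultures (70.1%, 72.4% and 72.0% of all genes called). Bmp4 rose in osteoblast cultures by 5.84 (SE 0.29, edgeR adjusted p = 5.12e-08) at 21% O2, to 22.0 CPM, and by 5.97 (SE 0.29, edgeR adjusted p = 1.81e-11) at 0.5% O2, to 18.1 CPM. Bmp4 in smooth muscle cultures was at 19.3 CPM at 21% O2 and 0.815 CPM at 0.5% O2, a fall by 4.59 (SE 0.35, edgeR adjusted p = 3.09e-10). Bmp2 transcripts fell between oxygen levels in proliferating cells by 1.41 (SE 0.11, edgeR adjusted p = 6.31e-08) and in osteoblast cultures by 1.24 (SE 0.17, edgeR adjusted p = 0.000249). Bmp8a was at 0.0134 CPM in proliferating cells and at 31.3 and 11.8 CPM in chondrocyte and osteoblast cultures at 21% O2, and Bmp3 at 0.0373 CPM in proliferating and 98.4 CPM in smooth muscle cultures. The activin subunit gene Inhbb fell in osteoblast cultures by 3.70 (SE 0.35, edgeR adjusted p = 5.4e-06) at 21% O2.

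Of 12 receptors and co-receptors, 7 of 12 rose and 5 fell in chondrocyte, 8 of 11 rose and none fell in osteoblast, and 8 of 12 rose and 3 fell in smooth muscle cultures at 21% O2, against 75.7%, 79.4% and 80.9% of all genes called. At 0.5% O2 the counts were 6 of 12 and 6, 6 of 11 and 5, and 3 of 11 and 6 (1 and 8 with library size alone), against 70.1%, 72.4% and 72.0% of all genes. Acvrl1, which encodes the type I receptor ALK1, rose between oxygen levels in proliferating cells by 2.15 (SE 0.25, edgeR adjusted p = 2.85e-06), in osteoblast cultures by 1.92 (SE 0.18, edgeR adjusted p = 2.64e-05) and in smooth muscle cultures by 3.67 (SE 0.26, edgeR adjusted p = 7.97e-11). The BMP co-receptor gene Rgma fell in osteoblast cultures by 1.34 (SE 0.16, edgeR adjusted p = 0.000112). Tgfbr3, encoding betaglycan, fell in chondrocyte cultures by 2.53 (SE 0.22, edgeR adjusted p = 2.59e-06) at 21% O2 and by 3.54 (SE 0.41, edgeR adjusted p = 0.00104) at 0.5% O2.

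Of 8 SMAD pathway genes, 7 rose and none fell between oxygen levels in osteoblast cultures, and 2 rose and 5 fell in smooth muscle cultures (1 and 7 with library size alone). Of all genes, 55.1% were called in the osteoblast comparison (27.3% higher) and 76.1% in the smooth muscle comparison (40.3% lower). Smad9 rose in osteoblast cultures by 2.07 (SE 0.32, edgeR adjusted p = 0.00104), from 22.9 to 96.7 CPM. The inhibitory gene Smad6 rose over proliferating cells by 5.08 (SE 0.42, edgeR adjusted p = 1.97e-06) in osteoblast cultures at 21% O2 and by 5.31 (SE 0.17, edgeR adjusted p = 9.69e-13) at 0.5% O2. Between oxygen levels it fell in smooth muscle cultures by 1.82 (SE 0.30, edgeR adjusted p = 4.72e-05), and in osteoblast cultures its difference of 0.76 (SE 0.37, edgeR adjusted p = 0.115) was not called. Osteoblast replicate 4 at 21% O2, at 133 CPM of Smad6 against 49.1 to 55.6 CPM in replicates 1 to 3, raised the group mean in that difference. Smad7, another inhibitory SMAD, rose between oxygen levels in proliferating cells by 1.59 (SE 0.14, edgeR adjusted p = 6.46e-06).

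Of 10 BMP targets, all were tested in chondrocyte and osteoblast cultures. At 21% O2, 9 rose and 1 fell in chondrocyte and 8 rose in osteoblast cultures, and at 0.5% O2, 9 rose and 1 fell in chondrocyte and 9 rose in osteoblast cultures. The shares of all genes called in these comparisons were 75.7% and 79.4% at 21% O2 and 70.1% and 72.4% at 0.5% O2. In smooth muscle cultures 5 of 7 rose and 1 fell at 21% O2, and 4 of 7 rose and 1 fell at 0.5% O2 (80.9% and 72.0% of all genes called), where with library size alone 0 rose and 4 fell. Between oxygen levels 3 of 10 rose and 1 fell in osteoblast cultures (1 and 1 with library size alone), where 55.1% of all genes were called. For smooth muscle cultures 1 of 9 rose and 5 fell (0 and 7 with library size alone), where 76.1% were called. Id1 rose in osteoblast cultures between oxygen levels by 0.78 (SE 0.14, edgeR adjusted p = 0.00146) and Id3 by 0.74 (SE 0.24, edgeR adjusted p = 0.0304), the latter lost with library size alone (0.58, edgeR adjusted p = 0.0806). Id3 fell in smooth muscle cultures by 0.90 (SE 0.09, edgeR adjusted p = 3.37e-08). Msx1 was the target that fell in osteoblast cultures, by 4.04 (SE 0.15, edgeR adjusted p = 1.32e-07) from 206 to 12.5 CPM.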

How the data were processed

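Per the submitters' processing notes, reads were handled with HISAT2 2.0.5, StringTie 1.3.3b and featureCounts 1.5.0-p3 on mm10; the annotation and the strand setting are not given in the sources used here. The authors deposited raw counts per gene for all 28 libraries, which were used as deposited. Their deposited log2 fold changes served as a check: in the authors' deposited table they had the sign of the fit here in 76 of 76 member values, with a median difference of 0.0204 and a largest of 1.52 (Nog in osteoblast cultures between oxygen levels). Another 70 per-library normalised columns in those tables were not used. Groups came from the labels. Each comparison was fitted on its own libraries with edgeR 4.0.16 (quasi-likelihood test, TMM factors, R 4.3.3), over genes with about 10 counts in the median library and 15 in total, with Benjamini-Hochberg adjustment and a threshold of 0.05, after the code had been tested on simulated data. DESeq2 1.42.0, limma-voom (limma 3.58.1), other scalings, no filter, 1 fit of all 8 groups, a replicate block and leaving out each library were the alternatives. Leaving out replicate 4 of both normoxic groups was added after seeing the data. Exon lengths are from GENCODE. Members and gene lists were chosen with earlier results of these data known. Named pathway genes are those with the largest called rise or fall of a list at 1 CPM or more in either group, and always Bmp2, Bmp4, Id1, Id3 and Smad6. The genes most like a member are the 3 with the highest Pearson r.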

Additional observations from a re-analysis of the deposited data

Results flagged for a closer look

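Of the 32 sets of 4 libraries at 21% O2 (8 genes in 4 groups), 8 held a library whose gap to its nearest neighbour was too large a part of the group's range by Dixon's test, which chance flags in about 1 in 20. All 8 were replicate 4, which by the same test stood out for 15.8% of 16540 genes in osteoblast, 5.99% in proliferating and 3.16% in smooth muscle cultures. In chondrocyte cultures, where no member was flagged, its share was 2.62%. Each other library at 21% O2 stood out for 0.768% to 2.62% of all genes, so such flags are not particular to the members. In osteoblast cultures replicate 4 was high for Nog (75.1 CPM), Grem1 (912 CPM), Fst (129 CPM), Nbl1 (437 CPM) and Twsg1 (437 CPM). In smooth muscle cultures replicate 4 was low for Grem1 (428 CPM) and high for Fst (18.5 CPM), and in proliferating cells it was low for Fst (85.4 CPM).

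Changes on differentiation that differed between the oxygen levels, by an interaction term in edgeR, were called for 4 genes in osteoblast cultures: Chrdl1 (3.82), Grem1 (1.20), Fstl1 (-2.35) and Twsg1 (-0.87). Chrdl1 itself differed between oxygen levels by -3.43 in proliferating cells (8 counts at 0.5% O2) and by 0.36 in osteoblast cultures. The share of all genes called was 54.0%. Over the alternatives 3 to 6 members were called: Chrdl1 was not tested with at least 10 counts required in every library, Nog was added without osteoblast replicate 4 (2.20, edgeR adjusted p = 0.00863), and Nog and Fst were added without replicate 4 of both groups (2.34 and 0.54, edgeR adjusted p = 0.00538 and 1.5e-05). In smooth muscle cultures they were called for all 8, where 70.0% of all genes were called: Chrdl1 (-3.51), Chrd (-0.93), Nog (3.77), Grem1 (-2.15), Fst (1.88), Fstl1 (-3.45), Nbl1 (-3.40) and Twsg1 (-1.83). Of these, Chrdl1 was lost in 10 fits that left out 1 library, Nog with all 8 groups in 1 fit (edgeR adjusted p = 0.539) and Fst with library size alone (edgeR adjusted p = 0.0964), and 6 to 8 members were called over the alternatives. Chrdl1 (8 and 27 counts at 0.5% O2) and Nog (8 and 25 counts in smooth muscle cultures) rest on comparisons below the count filter. They add no weight to the count of all 8.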

How the results depend on the processing

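The count of genes called between oxygen levels in chondrocyte cultures was 3211, and from 2120 to 3371 when 1 library was left out, the lowest without replicate 3 at 0.5% O2. Every other count of genes called in a comparison, both directions together, stayed within 1.5 times its main value under the alternatives run. The split by direction moved more. With library size alone the higher calls went from 4888 to 1805 in smooth muscle against proliferating cells at 0.5% O2. Between oxygen levels in smooth muscle cultures they went from 5341 to 2058. Fstl1 between oxygen levels in chondrocyte cultures, not tested and near 0, ran from -0.0724 to 0.0303 over the alternatives. Among the other members' values, 25 under an alternative had the opposite sign, and the cause was not tested. For Grem1 in osteoblast against proliferating cells at 21% O2 they were -0.0691 without osteoblast replicate 4, where leaving out 1 library gave -0.0691 to 0.254, and -0.0661 without replicate 4 of both groups. For smooth muscle cultures at 0.5% O2 they were -0.23 for Chrd with library size alone, and for Twsg1 -1.27 with library size alone, -0.0933 without the filter, -0.114 with all 8 groups in 1 fit, and -0.0432 to 0.0406 over the fits that left out 1 library. Between oxygen levels in osteoblast cultures Nog was 0.48 with limma-voom, 2.03 with the replicate block and 2.06 without osteoblast replicate 4 at 21% O2, and Fst was 0.0495 with the replicate block and 0.0468 without that library. Replicate 4 exists at 21% O2 alone, so in a comparison between oxygen levels the block in effect takes it out. The block and the fit without osteoblast replicate 4 are therefore not separate checks here. Over the fits that left out 1 library Nog ran from -2.23 to 2.06 and Fst from -0.546 to 0.0468. For the osteoblast interaction Nog was 0.53 with limma-voom, 2.20 without that library and 2.34 without replicate 4 of both groups. Fst was 0.050 with limma-voom, 0.0680 with the replicate block, 0.0894 without proliferating replicate 4, 0.413 without osteoblast replicate 4, 0.0264 without osteoblast replicate 3 at 0.5% O2 and 0.54 without replicate 4 of both groups, and Nbl1 was 0.0671 without proliferating replicate 2 at 0.5% O2. Leaving out 1 library gave ranges of -2.11 to 2.20 for Nog, -0.189 to 0.413 for Fst and -0.239 to 0.0671 for Nbl1. Replicate numbers did not pair the libraries: correlations of same-numbered deviations lay between -0.0535 and 0.0797. The block, which in effect takes out replicate 4 there too, also brought the fall of Fst between oxygen levels in proliferating cells past the threshold (-0.45, edgeR adjusted p = 1.29e-10). Depth limits Chrdl1 at 0.5% O2 in proliferating cells (8 counts) and in smooth muscle cultures (27 counts), and Nog in smooth muscle cultures (8 and 25 counts).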
